A study of Mus musculus with 8 samples.

Results

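The genes described here are 10 that a dividing cell needs to copy its centrioles and to part into 2 daughters: Plk4, Sass6, Stil, Cep152 and Cenpj on the centriole side, and Cep55, Anln, Ect2, Prc1 and Racgap1 on the midbody side. They were chosen by gene symbol, and all probes of each on the arrays were taken. The 10 genes had 12 probes among the 55681 probes of the array. All 10 were among the 17093 features (genes, or transcripts without a matched symbol) that passed the filter on signal over background, each through a probe that was well above background on all 4 control arrays.

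The cells were dermal fibroblasts from the skin of newborn C57BL/6 mice, grown in culture and given either control oligonucleotides (control, n = 4) or a miR-127-3p mimic (n = 4) by transfection. MiR-127-3p is a microRNA, and a mimic is a synthetic RNA duplex that supplies the mature microRNA. Arrays are named by the sample number in their labels: controls 1, 3, 6 and 8, and mimic arrays 2, 4, 5 and 7. The sources used here do not say whether samples of a group came from separate mice or cultures, so p-values measure the spread between these samples, which may be technical. The treatment field of controls 3 and 6 names both oligonucleotides, and their group was taken from the title and the source name, which both say control. The microRNA that the mimic stands for is shown because it is the treatment that separates the groups. Its mature sequence in RefSeq (GRCm38.p6, chr12:109592888-109592909, plus strand) is printed with the seed, bases 2 to 8, in capitals.
mmu-miR-127-3p: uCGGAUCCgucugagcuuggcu

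Centrioles are the barrel-shaped microtubule cylinders at the heart of each centrosome, and a cycling cell builds a single new centriole beside each old one. The kinase Plk4, brought to the old centriole by the scaffold Cep152, binds and phosphorylates Stil, which recruits Sass6, the protein of the cartwheel that sets the centriole's symmetry. Cenpj then helps to lengthen the microtubule wall. At the other end of division, Prc1 bundles the antiparallel microtubules of the central spindle. Racgap1, a subunit of centralspindlin, brings in the exchange factor Ect2, which activates RhoA at the cleavage furrow. Anln links the actomyosin ring to the membrane, and Cep55 recruits the ESCRT machinery that cuts the last bridge at the midbody. Transcripts of many of these genes are known to rise as cells pass through S phase, G2 and mitosis.

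All 10 genes were lower with the mimic (limma, adjusted p between 1.29e-05 and 0.00135, two-sided, adjusted by Benjamini-Hochberg across the 17093 features). The test called 18.3% of all features lower. In each of the 10 genes every mimic array lay below every control array, which held for 19.0% of all features. A fall of at least 2-fold that passed the test was seen in 8 of the 10 genes and in 3.88% of all features. With normexp, an alternative background model fitted to the median signals, that count was 4 (Anln, Ect2, Prc1 and Racgap1) and the share 2.30%. Plk4 passed the filter through its control arrays and was well above background on 1 of 4 mimic arrays. Its part in the counts by processed signal therefore rests on mimic values near background. The 5 midbody genes had a median log2 fold change of -1.88 and the 5 centriole genes of -1.02, beside a median of 0.02 over all features. These are bulk cultures, so fewer cells in division and less RNA per cell cannot be told apart. In what follows a level is the log2 processed signal of the probe minus the array's 75th percentile, a difference is mimic minus control, and SE is the standard error of the fitted difference. Levels of different genes cannot be set against each other, because probes differ in brightness. Control means ran from -1.01 to 1.04 over the 5 centriole probes and from 0.04 to 5.27 over the 5 midbody probes. The part of probe brightness in the distance between the medians of the 2 sets was not tested.

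**Figure D1:**
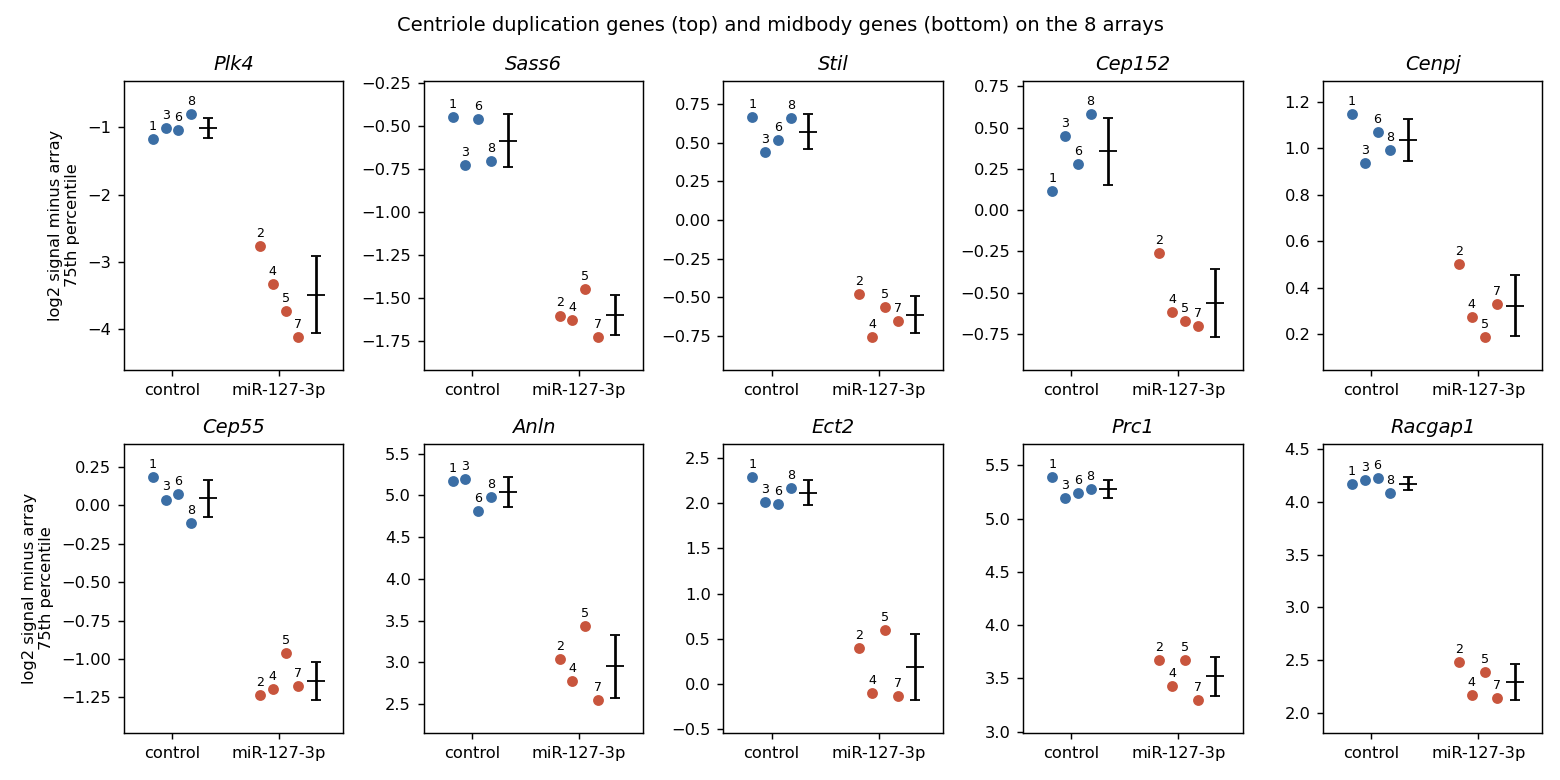
Level of each gene (log2 processed signal minus the array's 75th percentile, vertical axis, with its own range per panel) on the 4 control and the 4 mimic arrays. Points are arrays, labelled with the sample number, and bars give the mean and SD. In all 10 panels the mimic arrays lie below the control arrays, with the narrowest gap in Cep152 (0.38) and the widest in Racgap1 (1.61).

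Plk4, the kinase that starts centriole duplication, had the largest fall of the 10 by processed signal. Its level was -1.18, -1.01, -1.04 and -0.81 on controls 1, 3, 6 and 8, and -2.77, -3.34, -3.73 and -4.12 on mimic arrays 2, 4, 5 and 7. The control arrays lay close together, whereas the mimic arrays spread widely, with array 2 the highest and array 7 the lowest. The means were -1.01 ± 0.15 (SD, n = 4) in controls and -3.49 ± 0.58 with the mimic. Its difference was -2.48 on the log2 scale (SE 0.26, adjusted p = 0.000207 by limma), a signal 5.58-fold lower, with a 95% interval of -3.07 to -1.89. Of the mimic arrays only array 2 was well above background for this probe, and the size of the fall differed with the background correction. With normexp background correction the log2 fold change was -0.78, and the 4 mimic arrays then lay between -1.44 and -1.23, with array 2 the lowest of them instead of the highest. No order among the mimic arrays can be read for Plk4.

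Cep152 had a smaller difference. It is the scaffold that brings Plk4 to the old centriole. Its level was 0.12, 0.45, 0.28 and 0.58 in controls and -0.26, -0.62, -0.67 and -0.70 on mimic arrays 2, 4, 5 and 7. Mimic array 2 came nearest to the controls, and the gap between the groups was 0.38, the narrowest of the 10 genes. Cep152 differed by -0.92 on the log2 scale (SE 0.14, adjusted p = 0.00135), or 1.89-fold lower. All 8 arrays lay on 1 slide in 2 rows, each with 2 arrays of either group. In row 1 alone the log2 fold change of Cep152 was -0.72 and did not pass the test (adjusted p = 0.0933). In row 2 alone it was -1.12 (adjusted p = 0.0284).

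Stil, the adaptor between Plk4 and the cartwheel, had groups that lay well apart. Its level was 0.67, 0.44, 0.52 and 0.66 in controls and -0.48, -0.75, -0.56 and -0.65 with the mimic. The spread was alike in both groups (SD 0.11 in controls and 0.12 with the mimic), and a gap of 0.92 lay between them. Stil differed by -1.18 on the log2 scale (SE 0.09, adjusted p = 5.56e-05), 2.27-fold lower, and the estimates in slide rows 1 and 2 were -1.17 and -1.20.

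Sass6 encodes the building block of the cartwheel. Its level was -0.45, -0.72, -0.45 and -0.70 in controls and -1.60, -1.63, -1.45 and -1.72 on mimic arrays 2, 4, 5 and 7. Controls 3 and 8 were the lower pair of their group, still 0.72 above the highest mimic array. For Sass6 the log2 fold change was -1.02 (SE 0.10, adjusted p = 0.000176), 2.02-fold lower. The probe was well above background on all 8 arrays, and normexp gave -0.66.

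Cenpj, which acts in centriole elongation, had the smallest difference of the 10 genes. Its level was 1.15, 0.94, 1.07 and 0.99 in controls and 0.50, 0.27, 0.19 and 0.33 with the mimic, with mimic array 2 again the highest. Cenpj differed by -0.71 on the log2 scale (SE 0.09, adjusted p = 0.000662), so that the signal with the mimic was 61.0% of that in controls. Its 95% interval was -0.92 to -0.50. In slide row 1 alone the log2 fold change of -0.65 did not pass (adjusted p = 0.0726), while in row 2 alone it was -0.77 (adjusted p = 0.0396).

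Anln had the largest fall of the midbody genes. Anillin ties the contractile ring to the membrane of the furrow. Its level was 5.18, 5.19, 4.82 and 4.98 in controls and 3.04, 2.77, 3.43 and 2.55 on mimic arrays 2, 4, 5 and 7. The mimic arrays were more spread (SD 0.38) than the controls (SD 0.18), with array 5 the highest and array 7 the lowest. For Anln the log2 fold change was -2.09 (SE 0.19, adjusted p = 0.000100), 4.26-fold lower.

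Ect2, the exchange factor that activates RhoA, had the same mimic arrays at its ends, 5 highest and 7 lowest. Its level was 2.29, 2.01, 2.00 and 2.17 in controls, and 0.40, -0.10, 0.59 and -0.13 on mimic arrays 2, 4, 5 and 7. Arrays 2 and 5 lay above arrays 4 and 7, and all 4 lay at least 1.40 below the lowest control. Ect2 differed by -1.93 on the log2 scale (SE 0.17, adjusted p = 0.000109), 3.80-fold lower.

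Racgap1, the centralspindlin subunit that recruits Ect2, had the tightest controls of the set. Its level was 4.17, 4.21, 4.22 and 4.08 in controls and 2.48, 2.16, 2.38 and 2.14 with the mimic. The gap between the groups was 1.61, the widest of the 10 genes. Racgap1 differed by -1.88 on the log2 scale (SE 0.10, adjusted p = 1.29e-05), 3.69-fold lower. A second probe for the same accession read 3.00, 2.61, 2.61 and 2.65 in controls and 0.82, 0.49, 0.92 and 0.51 with the mimic. That probe differed by -2.03 on the log2 scale (SE 0.14, limma adjusted p over all probes tested = 3.00e-05), the same direction and a similar size.

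Prc1, the microtubule bundler of the central spindle, read 5.39, 5.19, 5.24 and 5.27 in controls and 3.67, 3.43, 3.67 and 3.30 with the mimic. Arrays 4 and 7 were again the lower mimic arrays. For Prc1 the log2 fold change was -1.76 (SE 0.11, adjusted p = 1.86e-05), 3.38-fold lower, and it was -1.74 in slide row 1 and -1.77 in slide row 2.

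Cep55, the last of these to act, had a smaller fall than the other midbody genes. Its level was 0.18, 0.04, 0.07 and -0.12 in controls and -1.23, -1.20, -0.96 and -1.18 with the mimic. Cep55 differed by -1.18 on the log2 scale (SE 0.10, adjusted p = 6.41e-05), 2.27-fold lower. Mimic array 5 was the highest of its group, still 0.84 below the lowest control. The 95% interval of Cep55, -1.40 to -0.96, lay above those of Anln, Ect2, Racgap1 and Prc1, whose upper bounds were -1.67, -1.53, -1.66 and -1.52. Cep55 had a second probe that was not well above background on any array and was not tested. With normexp Cep55 differed by -0.72, and the part of background removal in its distance from the other midbody genes was not tested.

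**Figure D2:**
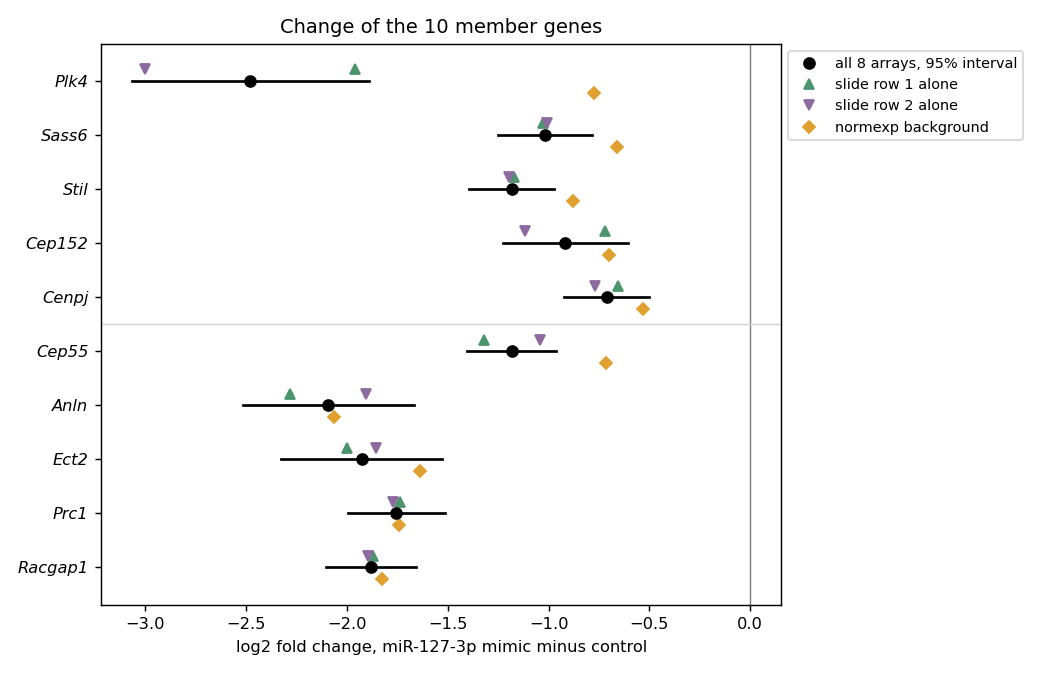
Log2 fold change of each gene (mimic minus control, horizontal axis) with all 8 arrays (black point, line for the 95% interval), in slide row 1 or row 2 alone (triangles, 2 arrays per group) and with normexp background correction (diamond). All estimates lie below 0. The normexp estimate of Plk4 (-0.78) lies far from its main value of -2.48, while those of Anln, Prc1 and Racgap1 nearly coincide with theirs.

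With normexp background correction the estimates moved little for 3 midbody genes, to -2.07 for Anln, -1.83 for Racgap1 and -1.74 for Prc1, and Ect2 had -1.64. For the centriole genes it gave -0.88 for Stil, -0.78 for Plk4, -0.70 for Cep152, -0.66 for Sass6 and -0.53 for Cenpj. All 10 passed the test with normexp, where 17.4% of all features were called lower. With normexp Plk4 lay within the range of the other centriole genes. Leaving out both controls with the ambiguous treatment field, a setting chosen after seeing the data, also left all 10 called lower (13.7% of all features), with log2 fold changes between -2.50 for Plk4 and -0.75 for Cenpj. Within slide row 2 alone all 10 were called lower (5.42% of all features) and within row 1 alone 8 were (5.80%). All 9 members that could be tested were called when a probe had to be above background on all 8 arrays (19.7% of features). All 10 were called with quantile normalization (18.3%), the deposited value table (18.4%), the mean of a gene's probes (18.4%), no filter (5.48%), slide row as a block (17.4%) and slide column as a block (13.0%). They were also called on removal of each array in turn, where the share of features called lower was 14.9%, 16.9%, 16.0% and 15.4% without control 1, 3, 6 or 8, and 16.9%, 14.4%, 18.0% and 14.6% without mimic arrays 2, 4, 5 or 7.

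Each slide column held 1 control and 1 mimic array. The difference was negative in all 4 columns for all 10 genes. It ranged from -3.10 to -1.73 for Plk4, from -2.64 to -1.74 for Anln and from -2.27 to -1.60 for Ect2. It was tighter for Racgap1 (-2.07 to -1.75), Prc1 (-1.89 to -1.57) and Sass6 (-1.15 to -0.92). When levels were set to 0 at each gene's control mean and averaged over genes, the 4 centriole genes other than Plk4 stood at -0.80, -1.03, -0.97 and -1.03 on mimic arrays 2, 4, 5 and 7, with array 2 the highest. Plk4 was left out of this average, a choice made after seeing the data, because 3 of its mimic values were not above background. The midbody genes stood at -1.66, -1.92, -1.51 and -1.99 on the same arrays, with array 5 the highest and array 7 the lowest.

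Profiles of other genes were compared over the 8 arrays, with levels set to 0 at the control mean, among 11881 genes with a symbol outside the lists. Nearest to the mean of the 5 centriole genes were Mcm4, Rrm2 and Siah1b, with root mean square differences of 0.0633, 0.0642 and 0.0721 on the log2 scale. That choice rested on the Plk4 values: without Plk4 these genes took places 320, 354 and 207. Nearest to the other 4 centriole genes were Msh6 (0.0526), a mismatch repair gene, Rad21 (0.0537), a cohesin subunit gene, and Mthfd1l (0.0617), a gene of mitochondrial folate metabolism. Their log2 fold changes were -0.98, -1.01 and -0.94. Nearest to the midbody genes were Prps1 (0.0447), an enzyme of nucleotide synthesis, Mlf1 (0.0626) and Ube2c (0.101), the ubiquitin-conjugating enzyme of the anaphase-promoting complex. Their log2 fold changes were -1.75, -1.80 and -1.67. All these genes were picked for nearness on the same arrays. Fold changes near those of the members follow from that choice and are no separate result.

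Other genes that build or regulate centrioles were lower in 16 of 27 tested cases and higher in 0, beside 18.3% of all features lower and 15.9% higher. Their median log2 fold change was -0.48. The lowest p-values belonged to Poc1a, a protein of the centriole wall (-1.57, SE 0.08, adjusted p = 1.28e-05), Tedc1, a partner of delta and epsilon tubulin (-1.88, SE 0.10, adjusted p = 1.29e-05), Tube1, the epsilon tubulin (-1.96, SE 0.17, adjusted p = 9.49e-05), and Cep295 (-0.90, SE 0.09, adjusted p = 0.000135). A second Cep295 probe also passed, at -1.52. Tube1 was well above background on all 4 control arrays but on 2 of 4 mimic arrays. The same held for Rttn and Cep85, which are counted among the 16 and named for this alone. Their part in the counts rests partly on mimic values near background. With normexp the log2 fold change of Tube1 was -0.99. Cep63, the partner of Cep152 at the old centriole, had a log2 fold change of 0.10 (adjusted p = 0.358). Fbxw5, known as a ubiquitin ligase component that targets Sass6, had one of 0.05 (adjusted p = 0.626).

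Genes of the pericentriolar material, the microtubule-nucleating coat of the centriole, and of the satellites around it were lower in 16 of 22 tested cases and higher in 0, with a median log2 fold change of -0.52 (18.3% of all features were lower and 15.9% higher). A fall of at least 2-fold was seen in 1 of the 22, near the 3.88% of all features. Tubg1, the gamma tubulin that seeds microtubules, fell by 0.74 on the log2 scale (SE 0.07, adjusted p = 0.000136), the ninein gene Nin by 0.73 (SE 0.09), the linker protein gene Cep68 by 1.15 (SE 0.15) and the scaffold gene Cdk5rap2 by 0.70 (SE 0.10). Of 2 tested Cdk5rap2 probes 1 passed, and of 3 tested Nin probes, which ran from -0.75 to -0.24, 2 passed. The linker protein gene Cep250 (-0.13, adjusted p = 0.244) and Ofd1, known for its part in cilia (0.08, adjusted p = 0.612), did not pass. Of 8 genes of the appendages of the mother centriole, by which a centriole anchors a cilium, 2 fell and 0 rose, near the 18.3% of all features that fell: Cntrl (-1.12, SE 0.12, adjusted p = 0.000292) and Cep89 (-0.83, SE 0.09, adjusted p = 0.000258). Cep83 had a log2 fold change of -0.01 (adjusted p = 0.943) and Cep164 of -0.25 (adjusted p = 0.146).

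Of 24 tested other genes of the central spindle and cleavage furrow, 15 fell and 1 rose, and 12 of the falls were at least 2-fold. Over all features 18.3% fell, 15.9% rose and 3.88% fell at least 2-fold. The median was -1.26, between 2 ranges of values. The 12 larger falls ran from -2.29 (Cit, citron kinase) to -1.69 (Incenp, of the chromosomal passenger complex), and the other 12 genes ran from -0.82 (Septin7) to 0.52 (Rhoa). Cit, Incenp and Septin7 are named as the ends of these ranges, chosen after their values were seen. The survivin gene Birc5 (-2.20, SE 0.11), the borealin gene Cdca8 (-1.87, SE 0.09), the kinase gene Plk1 (-2.15, SE 0.11) and Shcbp1 (-2.21, SE 0.12), a partner of centralspindlin, had adjusted p-values of 1.28e-05 to 1.29e-05. Cit was well above background on 1 of 4 mimic arrays. Among the 8 genes that did not pass, Myh9, the heavy chain of nonmuscle myosin, had a difference of 0.03 (adjusted p = 0.859), and Septin9, of the septin filaments, one of 0.14 (adjusted p = 0.387).

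Rhoa, the GTPase that Ect2 activates, was the gene of this list that rose, by 0.52 (SE 0.14, adjusted p = 0.0185). Under 7 of the 19 alternatives Rhoa did not pass, including slide column as a block (adjusted p = 0.0697) and the removal of control 8 (adjusted p = 0.0513) or of mimic array 4 (adjusted p = 0.0543). A second Rhoa probe gave -0.01, and with the mean of both probes the change was 0.26 (adjusted p = 0.139).

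**Figure D3:**
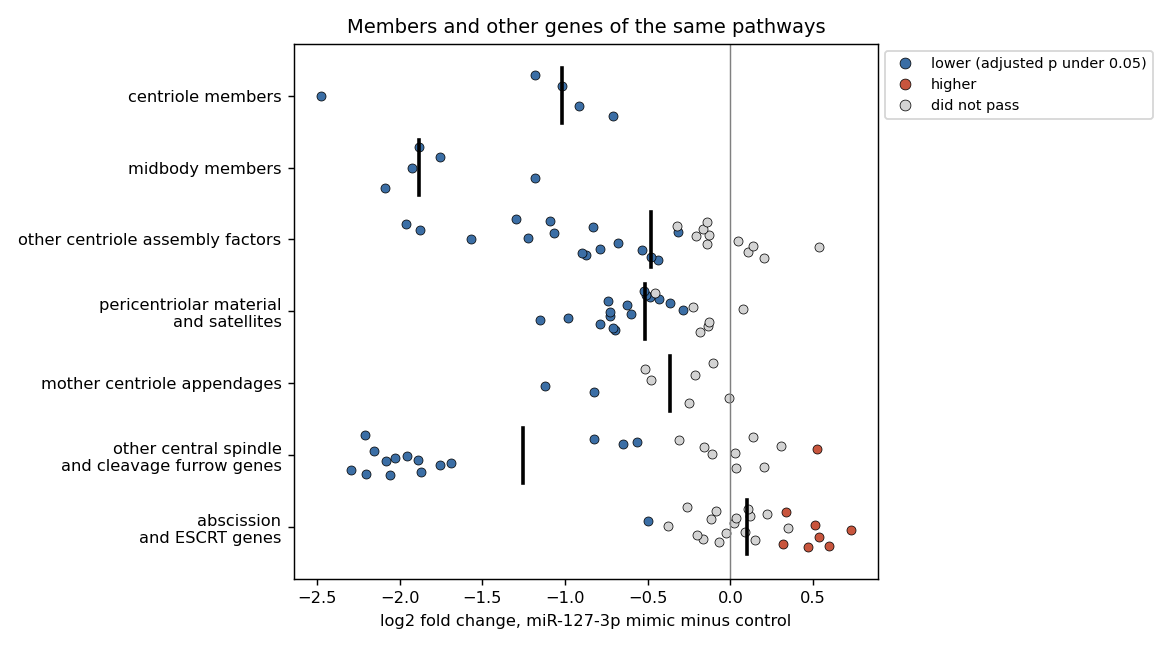
Log2 fold change (mimic minus control, horizontal axis) of every tested gene of the 10 members and of 5 related lists, 1 point per gene, with a bar at each list's median. Blue points fell and red points rose at an adjusted p under 0.05, and grey points did not pass. All 10 members are blue, while among 24 abscission and ESCRT genes 1 is blue and 7 are red.

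The last list held genes of abscission and of the ESCRT machinery. Of 24 tested, 1 fell and 7 rose, with a median log2 fold change of 0.10. The shares of all features called were 18.3% lower and 15.9% higher. Chmp1b (0.59, SE 0.10, adjusted p = 0.00212), Chmp5 (0.54, SE 0.09, adjusted p = 0.00277) and Chmp1a (0.47, SE 0.10, adjusted p = 0.00812), all ESCRT-III genes, rose. Mitd1, which binds ESCRT-III and acts at the midbody, rose as well (0.73, SE 0.13, adjusted p = 0.00310). The GTPase gene Rab35, which clears the intercellular bridge for abscission, fell (-0.50, SE 0.09, adjusted p = 0.00291). Chmp4b, the main filament subunit, had a log2 fold change of -0.16 (adjusted p = 0.355), and Vps28, of the ESCRT-I complex, one of 0.22 (adjusted p = 0.0605). The 3 tested Chmp4b probes ran from -0.17 to 0.32, and 0 of them passed. The count of rises was 4 with slide column as a block (10.4% of all features higher), and 1 and 0 within slide rows 1 and 2 (4.49% and 4.01%).

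The 250 bases before the annotated starts of the 10 genes were searched for motifs known from promoters of cell cycle genes. These were the CHR (TTTGAA), which the MuvB complexes bind, the CCAAT box (CCAAT), which NF-Y binds, and E2F sites (searched as TTCCCGC, then as TTGGCGC, then as TTCGCGC and then as TTGCCGC), on both strands. RefSeq (GRCm38.p6) gave windows for all 10 genes, 13 in all, since Cep55, Ect2 and Prc1 have 2 annotated starts each whose windows overlap. The CHR letters were found for 4 of the 10 genes (Sass6, Cep55, Ect2 and Prc1), and 16.0% of 32841 windows of the same length in the table hold them. The CCAAT letters were found for 5 genes (Stil, Cep152, Ect2, Prc1 and Racgap1), and in 33.9% of all windows. An E2F match was found for 3 genes (Plk4, Cep152 and Ect2), and in 7.89% of all windows. Ect2 and Prc1 held both CHR and CCAAT letters, as 5.55% of all windows do. These shares are per window, whereas a gene was counted if any of its windows matched. Of the 13 windows, 5 held CHR letters, 7 CCAAT letters, 3 an E2F match, and 3 both CHR and CCAAT letters. Cenpj and Anln held none of these letters in the window. A match is a description of the letters and not evidence of binding. Bases after the start and other forms of these motifs were not searched. A window without a match therefore does not show that a gene lacks such a site.

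The windows of 4 genes are printed with the matches in capitals, 5′ to 3′ on the gene's strand, ending at the base before the annotated start: Plk4, the starting kinase, with a lone E2F match, Ect2, with all 3 kinds of match, Prc1, with a CHR close to the start, and Anln, with a large fall and no match. For Ect2 the window of the start nearer to the gene body is shown, and for Prc1 that of the second start.
Plk4 (chr3:40799701-40799950, plus strand): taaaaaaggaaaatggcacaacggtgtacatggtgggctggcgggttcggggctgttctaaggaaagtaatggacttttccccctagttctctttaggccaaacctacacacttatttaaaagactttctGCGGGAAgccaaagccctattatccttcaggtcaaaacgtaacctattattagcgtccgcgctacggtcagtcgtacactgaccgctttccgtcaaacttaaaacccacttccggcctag
Ect2 (chr3:27153855-27154104, minus strand): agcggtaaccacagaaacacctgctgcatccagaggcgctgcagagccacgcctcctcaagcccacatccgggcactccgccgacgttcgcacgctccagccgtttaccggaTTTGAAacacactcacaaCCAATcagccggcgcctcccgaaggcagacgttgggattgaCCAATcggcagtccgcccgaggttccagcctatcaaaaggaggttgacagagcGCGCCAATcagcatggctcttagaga
Prc1 (chr7:80294226-80294475, plus strand): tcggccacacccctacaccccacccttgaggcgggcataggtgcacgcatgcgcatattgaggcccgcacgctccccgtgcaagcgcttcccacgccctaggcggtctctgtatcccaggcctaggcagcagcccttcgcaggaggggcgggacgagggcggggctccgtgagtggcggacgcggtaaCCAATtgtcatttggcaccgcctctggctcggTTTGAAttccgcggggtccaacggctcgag
Anln (chr9:22389207-22389456, minus strand): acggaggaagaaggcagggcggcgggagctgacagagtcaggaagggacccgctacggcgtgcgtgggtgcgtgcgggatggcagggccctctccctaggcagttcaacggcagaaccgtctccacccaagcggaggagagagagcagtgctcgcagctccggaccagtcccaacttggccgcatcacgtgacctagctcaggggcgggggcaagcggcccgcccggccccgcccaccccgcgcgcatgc

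In Plk4 the capitals are TTCCCGC read on the other strand, 120 bases before the start. In Ect2 the CHR lies 138 bases before the start, CCAAT letters begin 120, 79 and 23 bases before it, and the last of these overlaps the E2F letters (TTGGCGC on the other strand, from base 26), so the run of capitals there is 2 matches. In Prc1 the CCAAT letters begin 62 bases and the CHR 30 bases before the start.

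**Figure D4:**
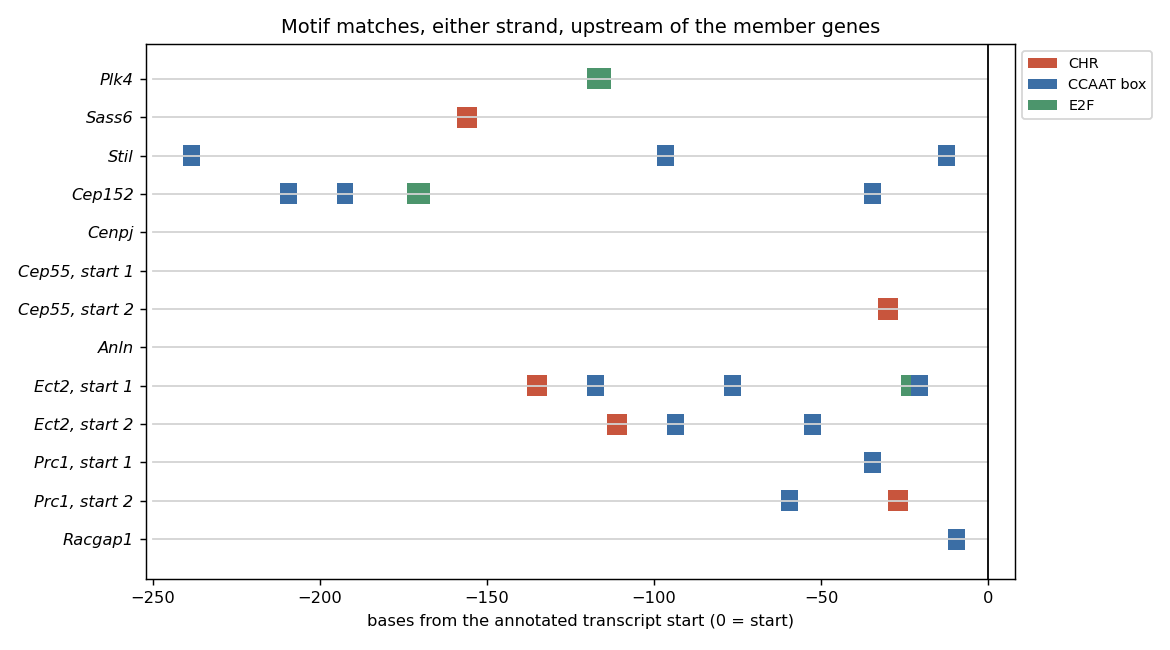
Positions of the motif letters (coloured boxes) on either strand in the 250 bases before each annotated start of the 10 genes, with distance from the start in bases on the horizontal axis. The first Ect2 start carries the most matches, and Cenpj, Anln and 1 of the Cep55 starts carry none.

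Other facts of the arrays bear on these values. The number of probes well above background ran from 20756 to 23472 over the 8 arrays, and no member had a saturated spot. Summed signals here are scaled to each array's 75th percentile. All 8 fibroblast markers tested, among them Col1a1, Col1a2, Pdgfra and Thy1, were well above background on all 8 arrays, with 2 called lower (Pdgfra and Col3a1), 1 higher (Dcn) and a summed signal of 1150 to 1347 in controls and 1264 to 1332 with the mimic. Among macrophage and leukocyte markers 8 of 9 were higher with the mimic. Over all features 15.9% were called higher and 18.3% lower. The summed signal of these markers was 36.1 to 45.3 in controls and 63.9 to 74.9 with the mimic. The brightest of them, Itgam, weighs most in that sum, with mean levels of 4.93 in controls and 5.44 with the mimic. Its arrays overlapped between the groups, and its change (0.51 on the log2 scale) was the smallest of the 9. The median log2 fold change of the 9 was 1.18. In 6 of the 9 every mimic array lay above every control array, as in 2587 of the 17093 features. The pan-leukocyte marker Ptprc did not pass the filter on signal. Keratinocyte markers summed to 11.0 to 20.6 in controls and 15.5 to 26.8 with the mimic, with 1 of 5 higher. Endothelial markers (1 of 3 higher) summed to 9.42 to 12.5 and 10.7 to 14.1, melanocyte and Schwann markers (1 of 6) to 6.69 to 9.45 and 6.03 to 10.6, and skeletal muscle markers (0 of 4) to 36.3 to 72.4 and 32.7 to 70.0. Outside the fibroblast list no marker was called lower. Krt1, Epcam, Cdh5, Tek, Emcn, Myod1 and Ckm did not pass the filter. The part of these markers in the falls described above was not tested.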

How the data were processed

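The members and the gene lists were chosen with earlier results of these data known. Each sample was read on its own 1-colour (Cy3) array. The scanner files hold spot intensity values (the processed signal) that the authors deposited. The file headers name Feature Extraction 11.5.1.1 as the software, and its background steps are not given in the sources used here. A value table from the authors holds log2 values and equals log2 processed signal minus 1 constant per array (SD of the offset at most 2.78e-07), with column medians of -3.78, -3.68, -3.60, -3.69, -3.68, -3.62, -3.60 and -3.67 for samples 1 to 8. That table was 1 of 19 alternatives, with normexp, quantile normalization, other filters, the mean of probes, slide row or column as a block, single rows and the removal of arrays.

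Control and outlier spots were left out, spots of a probe were averaged, and each array's 75th percentile was subtracted. Accessions matched a symbol in the RefSeq table (GRCm38.p6, names alone) for 28331 of 55681 probes. Probes well above background on at least 4 of 8 arrays were tested (21964), a gene being its brightest probe. Groups were compared with limma 3.58.1 (R 4.3.3), threshold 0.05. The fit was tested on simulated data with independent values and few changed features, which checks the code and not the calls made here. The normexp alternative (offset 50) used the median signal, as the files hold no mean signal. Named were all 10 members, per list up to 4 called genes per direction by smallest p and the 2 brightest not called, and the nearest profiles. Target sites of miR-127-3p in transcripts were not analysed here. A marker gene is not reported here. The number of arrays limits precision.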

Additional observations from a re-analysis of the deposited data

Results flagged for a closer look

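None of the 10 genes had an array that stood apart from the other 3 of its group by Dixon's test for groups of 4. Of 92 groups of 4 arrays examined (the 10 genes, the other genes named and the nearest profiles), 3 had such an array, where chance gives about 1 in 20. Mimic array 2 was the highest of its group for Mcm4, at 4.07 against 3.66 for the next array. It was the lowest of its group for Cep250, at 1.63 against 1.75. Control 6 was the lowest of its group for Cep83, at 2.96 against 3.04.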

How the results depend on the processing

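The 10 genes were refitted under 19 settings, of which the removal of both controls with the ambiguous label was chosen after seeing the data. All 10 kept a negative difference in every setting that tested them. Plk4 was not tested when a probe had to be above background on all 8 arrays. Only slide row 1 alone, with 2 arrays per group, lost calls: Cep152 (-0.72, adjusted p = 0.0933) and Cenpj (-0.65, adjusted p = 0.0726), which left 3 of 5 centriole genes called. The falls of at least 2-fold numbered 8 of 10, and 4 of 10 with normexp, beside 3.88% and 2.30% of all features. The count with normexp was added after seeing the data, as was the centriole profile without Plk4. Over the removal of single arrays, log2 fold changes ranged from -2.72 to -2.27 for Plk4, -1.07 to -0.97 for Sass6, -1.23 to -1.14 for Stil, -1.02 to -0.84 for Cep152, -0.77 to -0.67 for Cenpj, -1.24 to -1.14 for Cep55, -2.25 to -1.96 for Anln, -2.06 to -1.82 for Ect2, -1.81 to -1.68 for Prc1 and -1.94 to -1.83 for Racgap1. Within slide rows 1 and 2 the falls numbered 6 and 9 of 27 among other centriole factors. In the pericentriolar list they numbered 3 and 4 of 22, and row 1 left 1 of 8 in the appendage list. Over all features 5.80% were called lower in row 1 and 5.42% in row 2. The single fall among the 24 tested genes of the ESCRT list became 0 in either row. It became 2 with normexp or the mean of probes (17.4% and 18.4% of all features), and 1 to 2 over the removal of single arrays. Features called lower and higher numbered 2013 and 1644 with no filter, 991 and 768 in row 1, and 926 and 685 in row 2, and 1780 were higher with slide column as a block. Over the removal of single arrays they numbered 2456 to 3073 lower and 1864 to 2899 higher. The other counts of falls moved to 13 to 16 of 27 (centriole factors) and 15 to 16 of 22 (pericentriolar). They moved to 2 to 3 of 8 (appendages) and 15 to 16 of 24 (central spindle). On these removals 14.4% to 18.0% of all features were called lower. No paired analysis was possible because the labels give no number to samples of both groups. Slide column as a block, which sets 1 control beside 1 mimic array by position alone, left all 10 genes called. Dim probes, Plk4 above all, bound what can be said of size.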
